A study of Mus musculus with 6 samples.

Results

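A set of 10 genes of the neuronal cytoskeleton and growth cone was followed in Pml knockout and WT neural stem cells: Tubb3, Dcx, Map2, Mapt, Stmn2, Stmn3, Gap43, Dpysl3, Crmp1 and Kif5c. They were chosen by name, as the 10 rows with these symbols among the 24421 gene rows of the count table, and 9 of the 10 had enough reads to be tested. The cells were primary neural stem cells of E13.5 mouse embryo brain, kept as neurospheres (floating clusters of dividing progenitors) in medium with 20 ng/ml epidermal growth factor and 20 ng/ml fibroblast growth factor 2 under 20% oxygen, and lysed on day 4 after dissociation. There were 3 libraries from cells labelled PML knockout (Pml-/- in the series text) and 3 libraries from WT controls. No label gives the strain, the sex or the part of Pml that was removed, and all 6 libraries carry the same batch label. Nor is it said whether the numbered replicates came from separate embryos or cultures, so p-values measure the spread between these libraries, which may be technical. Both genotypes were grown in medium that keeps progenitors dividing, and neither was put through a differentiation protocol in these samples.

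Neurons are shaped by microtubules, hollow polymers of tubulin, and by the growth cone, the motile tip of a growing axon or dendrite. Microtubule-associated proteins such as Dcx, Map2 and Mapt (tau) bind along the polymer and stabilise it, and stathmins bind free tubulin dimers and promote disassembly. Collapsin response mediator proteins (CRMPs) bind tubulin and relay guidance signals to the growth cone, Gap43 works at its membrane, and kinesins carry cargo along the microtubules. In the embryonic brain they are commonly used to mark newborn neurons, although several of them, such as Map2 and Dpysl3, are also transcribed in progenitors and glia.

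The 10 genes did not move as a block. The growth cone gene Gap43 and the stathmin gene Stmn3 stood lower in all 3 Pml knockout libraries than in any WT library, at 0.386 and 0.411 times the WT mean in CPM (reads scaled to 1000000 per library, with library scaling factors). The CRMP gene Dpysl3 stood higher in all 3 knockout libraries, at 1.38 times the WT mean. Groups did not overlap for 23.6% of all tested genes, 11.3% on the lower side and 12.3% on the higher. The other 6 tested members overlapped between genotypes, and Stmn2 had at most 3 reads in any library. By edgeR's quasi-likelihood test across all 11317 tested genes, with Benjamini-Hochberg adjustment, 0 of the 9 tested members passed an adjusted p of 0.05, beside 0.00884% of all tested genes. At an unadjusted p under 0.05 there were 2 members, Gap43 and Stmn3, both lower, beside 9.19% of all genes on the lower side and 6.70% on the higher side. DESeq2 called the same 2 members lower and 0 higher, beside 1.97% of all genes called lower, 0.928% called higher and 2.90% in either direction. The edgeR exact test also called these 2, beside 1.86% of all genes called lower, 1.31% higher and 3.17% in either direction. The authors' deposited table gives an adjusted p under 0.05 to the same 2, beside 1.81% of its genes called lower, 1.13% higher and 2.94% in either direction. The library sets, and partly the methods, are shared between these tests, so their calls are not independent of each other.

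**Figure D1:**
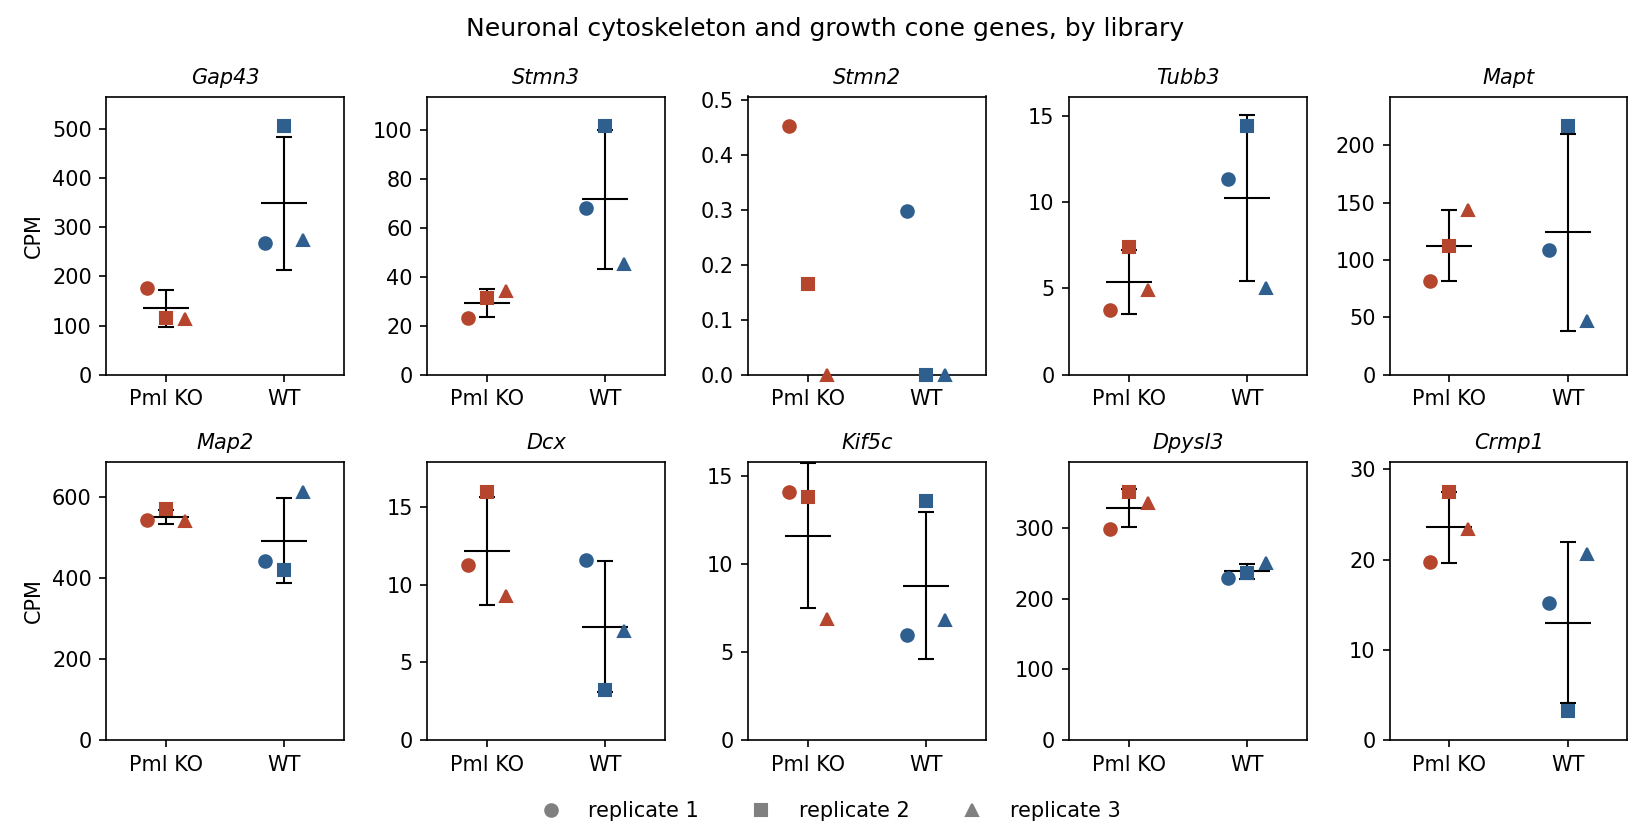
CPM of the 10 genes in each library, Pml knockout left and WT right; symbols mark replicates, and the bar and whiskers give mean ± SD of 3 libraries (not drawn for Stmn2, which had 0 to 3 reads). The axes start at 0 and differ between panels; Gap43 and Stmn3 lie lower in every knockout library and Dpysl3 higher, while the other genes overlap.

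The WT libraries were uneven in depth and content. Total counts ran from 4980638 to 5917505 in the knockout libraries and from 1775152 to 4413318 in WT. Rn45s, the row of the 45S pre-ribosomal RNA, held 14.6% to 17.6% of counts in knockout libraries and 41.9%, 39.8% and 19.6% in WT replicates 1, 2 and 3. A list of 37 liver-type transcripts summed to 119 to 166 CPM in the knockout libraries and to 748, 1313 and 218 CPM in WT replicates 1, 2 and 3. WT replicate 3 is therefore the WT library closest to the knockout libraries on both measures, and values against it alone are given beside the main ones. Pml itself had 14, 23 and 5 reads in the knockout libraries and 36, 35 and 44 reads in WT. Its log2 fold change was -2.81 (SE 0.661) with an edgeR adjusted p of 0.197. The reads come from the 3′ end of transcripts, which checks the deletion only if that end was removed.

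Gap43 encodes a membrane-attached phosphoprotein of the growth cone that binds calmodulin and is a classic marker of axon growth. The gene (ENSMUSG00000047261.9, chromosome 16, 42248442 to 42340651, minus strand, GRCm38) has 1 annotated coding transcript with 3 exons and 1420 bases. Because the libraries were primed at the poly(A) tail, its reads come from near the 3′ end of that transcript. The last 30 bases of the transcript are shown with the poly(A) signal in capitals, beside those of Stmn3.

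Gap43: tgaatattAATAAAtcatgagagtaatcaa
Stmn3: ggcaaccttAATAAAtctagtggcagtggc

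The signal AATAAA stands in the last 30 bases of 51.4% of the longest coding transcripts of all annotated genes with one. Gap43 had 1179, 695 and 755 reads in knockout replicates 1, 2 and 3, against 901, 633 and 1210 reads in WT replicates 1, 2 and 3. In CPM this is 177, 115 and 113 CPM in the knockout libraries, against 268, 506 and 275 CPM in WT. WT replicate 2, the shallowest library, was the highest, WT replicates 1 and 3 lay close together, and all 3 stood above the highest knockout library. The means were 135 ± 36.8 CPM in knockout and 350 ± 135 CPM in WT (SD, n = 3 each). The log2 fold change was -1.37 (SE 0.335), with an edgeR unadjusted p of 0.00215 and an adjusted p of 0.197. DESeq2 gave -1.39 with an adjusted p of 0.0155, and the authors' deposited table gives -1.335 with an adjusted p of 0.0208. Against WT replicate 3 alone the log2 fold change was -1.03 (adjusted p 0.0628), and without WT replicate 2 it was -0.998 (adjusted p 0.130). With only WT replicate 3 kept, the WT spread is taken from the knockout libraries. Among the tested members Gap43 had the lowest log2 fold change.

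Stmn3 encodes SCLIP, a stathmin attached to Golgi and vesicle membranes that binds tubulin dimers. The gene (ENSMUSG00000027581.12, chromosome 2, 181306459 to 181314500, minus strand, GRCm38) has 1 coding transcript of 1136 bases, the shortest among the 10 genes. It had 153, 189 and 229 reads in the knockout libraries, against 229, 127 and 199 reads in WT. This is 23.0, 31.2 and 34.2 CPM in knockout replicates 1, 2 and 3, against 68.2, 102 and 45.2 CPM in WT replicates 1, 2 and 3. The 3 knockout libraries lay within a narrow band, and the lowest WT library, replicate 3, stood closest to them. The means were 29.4 ± 5.76 CPM in knockout and 71.6 ± 28.3 CPM in WT (SD, n = 3 each). The log2 fold change was -1.27 (SE 0.347), with an edgeR unadjusted p of 0.00437 and an adjusted p of 0.212. DESeq2 gave -1.28 with an adjusted p of 0.0408. The authors' deposited table gives -1.23 with an adjusted p of 0.0447. Against WT replicate 3 alone the log2 fold change shrank to -0.62 (adjusted p 0.274).

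Stmn2 encodes SCG10, the stathmin of growing neurites, and is widely used as a marker of postmitotic neurons. It had 3, 1 and 0 reads in the knockout libraries, against 1, 0 and 0 reads in WT. A count of 0 allows up to 3 reads, which is 0.447 CPM in knockout replicate 3 and 2.40 and 0.681 CPM in WT replicates 2 and 3. Both genotypes were at or under that floor, so no fold is given, and a difference in Stmn2 was not detectable at this depth.

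Promoter sequence, from 250 bases before to 50 after the transcription start, was taken from the RefSeq table (GRCm38.p6) for 6 of the 10 members: Map2, Kif5c, Stmn3, Crmp1, Tubb3 and Dcx. Of these windows 4 are shown for a stathmin, a tubulin, a microtubule-associated protein and a CRMP gene, with the GC box GGGCGG (or CCGCCC on the other strand, overlapping matches counted) in capitals. They are chr2:181314451-181314750 (minus strand) for Stmn3, chr8:123411303-123411602 (plus strand) for Tubb3, chr1:66175079-66175378 (plus strand) for Map2 and chr5:37241808-37242107 (plus strand) for Crmp1, each written 5′ to 3′ along the gene.

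Stmn3: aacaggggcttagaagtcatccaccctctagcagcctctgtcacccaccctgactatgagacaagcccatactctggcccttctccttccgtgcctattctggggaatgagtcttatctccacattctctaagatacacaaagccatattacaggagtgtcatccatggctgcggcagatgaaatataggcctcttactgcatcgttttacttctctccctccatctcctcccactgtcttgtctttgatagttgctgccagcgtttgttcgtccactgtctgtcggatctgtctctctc
Tubb3: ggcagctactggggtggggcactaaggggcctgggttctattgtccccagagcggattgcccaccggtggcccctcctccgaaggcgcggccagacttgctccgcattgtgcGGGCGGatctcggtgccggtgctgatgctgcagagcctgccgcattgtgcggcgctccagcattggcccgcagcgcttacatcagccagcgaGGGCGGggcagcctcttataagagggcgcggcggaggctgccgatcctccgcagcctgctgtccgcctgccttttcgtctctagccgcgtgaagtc
Map2: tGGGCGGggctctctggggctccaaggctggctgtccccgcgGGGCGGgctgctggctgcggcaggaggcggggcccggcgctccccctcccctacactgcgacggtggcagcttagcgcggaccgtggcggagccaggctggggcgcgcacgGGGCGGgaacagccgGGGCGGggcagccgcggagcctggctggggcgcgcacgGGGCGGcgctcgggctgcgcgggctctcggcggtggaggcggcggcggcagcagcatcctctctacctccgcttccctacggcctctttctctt
Crmp1: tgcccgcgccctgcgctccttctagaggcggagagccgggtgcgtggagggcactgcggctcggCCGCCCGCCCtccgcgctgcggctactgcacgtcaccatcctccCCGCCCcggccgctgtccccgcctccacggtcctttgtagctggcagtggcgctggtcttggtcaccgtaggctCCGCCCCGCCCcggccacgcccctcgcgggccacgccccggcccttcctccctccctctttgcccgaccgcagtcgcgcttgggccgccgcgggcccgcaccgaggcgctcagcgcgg

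The GC box had 0 matches in the Stmn3 window, 2 in the Tubb3 window, 5 in the Map2 window and 5 in the Crmp1 window shown, against a match in 35.7% of the 32851 windows in the table. Of the windows not shown, both of Dcx had 0 matches, that of Kif5c had 1 and the other Crmp1 window had 2. A relation between these counts and the fold changes was not tested. GC content was 49.7% for Stmn3, 67.3% for Tubb3, 77.7% for Map2 and 77% for Crmp1. The E-box CAGCTG, a palindrome, matched 0 times in the 8 windows of the 6 members and is held by 16.3% of all windows. These are matches of letters only, and Dpysl3 was left out of the motif counts.

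Tubb3 encodes beta-III tubulin, the tubulin isotype most used to stain young neurons. It had 25, 45 and 33 reads in the knockout libraries, against 38, 18 and 22 reads in WT. The levels were 3.76, 7.42 and 4.92 CPM in knockout replicates 1 to 3, against 11.3, 14.4 and 4.99 CPM in WT replicates 1 to 3. WT replicates 1 and 2 stood above every knockout library, while WT replicate 3 lay between knockout replicates 2 and 3. Its log2 fold change of -0.88 (SE 0.522) did not pass (edgeR adjusted p 0.427), and against WT replicate 3 alone it was 0.09 (adjusted p 0.955).

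Dpysl3 encodes CRMP4, which binds tubulin and actin in the growth cone. It had 1991, 2134 and 2249 reads in the knockout libraries, against 769, 296 and 1104 reads in WT. These were 299.5, 352 and 335 CPM in knockout replicates 1 to 3, against 229, 237 and 250.6 CPM in WT replicates 1 to 3. The groups did not overlap, and the WT libraries lay close together here although they differed widely for other members. The means were 329 ± 26.8 CPM in knockout and 239 ± 11 CPM in WT (SD, n = 3 each). The log2 fold change was 0.46 (SE 0.237), with an edgeR unadjusted p of 0.0785 and an adjusted p of 0.366, and DESeq2 gave an adjusted p of 0.285. Against WT replicate 3 alone the log2 fold change was 0.39. It kept its sign under all 22 alternatives, between 0.33 and 0.91 on the log2 scale. Among these, the threshold of 0.01 and the non-robust fit left the value as in the main fit.

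Crmp1 encodes another CRMP, a phosphoprotein that acts downstream of semaphorin 3A. It had 131, 167 and 157 reads in the knockout libraries, against 51, 4 and 91 reads in WT. The levels were 19.7, 27.5 and 23.4 CPM in knockout replicates 1 to 3, against 15.2, 3.20 and 20.7 CPM in WT replicates 1 to 3. WT replicate 3 overlapped the knockout libraries, and WT replicate 2 rested on 4 reads. Its log2 fold change of 0.77 (SE 0.491) did not pass (edgeR adjusted p 0.462), and against WT replicate 3 alone it was 0.18 (adjusted p 0.809).

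Dcx encodes doublecortin, the microtubule-binding protein of migrating neurons. It had 75, 97 and 62 reads in the knockout libraries, against 39, 4 and 31 reads in WT. This is 11.3, 16 and 9.25 CPM in knockout replicates 1 to 3, against 11.6, 3.20 and 7.04 CPM in WT replicates 1 to 3. WT replicate 1 lay among the knockout libraries, and WT replicate 2 again rested on 4 reads. Dcx had a log2 fold change of 0.67 (SE 0.483, edgeR adjusted p 0.510). Leaving out WT replicate 2 lowered it to 0.40, and leaving out WT replicate 1 raised it to 1.14. Against WT replicate 3 alone it was 0.78.

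Kif5c encodes a neuronal heavy chain of kinesin-1, the motor that carries vesicles and mitochondria outward along axons. It had 94, 84 and 46 reads in the knockout libraries, against 20, 17 and 30 reads in WT. The levels were 14.1, 13.9 and 6.86 CPM in knockout replicates 1 to 3, against 5.95, 13.6 and 6.81 CPM in WT replicates 1 to 3. Knockout replicate 3 lay beside WT replicates 1 and 3, and WT replicate 2 lay beside knockout replicates 1 and 2. The log2 fold change of 0.48 (SE 0.481) did not pass (edgeR adjusted p 0.644), and against WT replicate 3 alone it was 0.76.

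Map2 encodes a microtubule-associated protein of dendrites that spaces microtubules and anchors protein kinase A. It had 3607, 3455 and 3626 reads in the knockout libraries, against 1490, 527 and 2705 reads in WT. Levels were 543, 570 and 541 CPM in knockout replicates 1 to 3, against 443, 421 and 614 CPM in WT replicates 1 to 3. The knockout libraries sat between the low and high WT libraries, and the log2 fold change was 0.16 (SE 0.264, edgeR adjusted p 0.783). Against WT replicate 3 alone it was -0.16. An antisense gene, Gm10558, shares 124 exonic bases with Map2 on the other strand, and since the strand setting of the counting is not given, reads there cannot be told apart. The exons of the other 9 genes overlap no other annotated gene.

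Mapt encodes tau, the microtubule-associated protein of axons. It had 542, 680 and 963 reads in the knockout libraries, against 366, 271 and 208 reads in WT. Levels were 81.5, 112 and 144 CPM in knockout replicates 1 to 3, against 109, 217 and 47.2 CPM in WT replicates 1 to 3. The highest and the lowest value both came from WT, with the highest 4.59 times the lowest. The log2 fold change was -0.13 (SE 0.472, edgeR adjusted p 0.914) with all libraries and 1.25 (adjusted p 0.0593) against WT replicate 3 alone, so even its sign depended on which WT libraries were kept.

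Across the 9 tested members, 5 had a log2 fold change above 0 and 4 below 0, where 49.7% of all tested genes lay above 0. The median was 0.16, beside -0.01 for all tested genes. Single values ran from -1.37 for Gap43 to 0.77 for Crmp1.

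**Figure D2:**
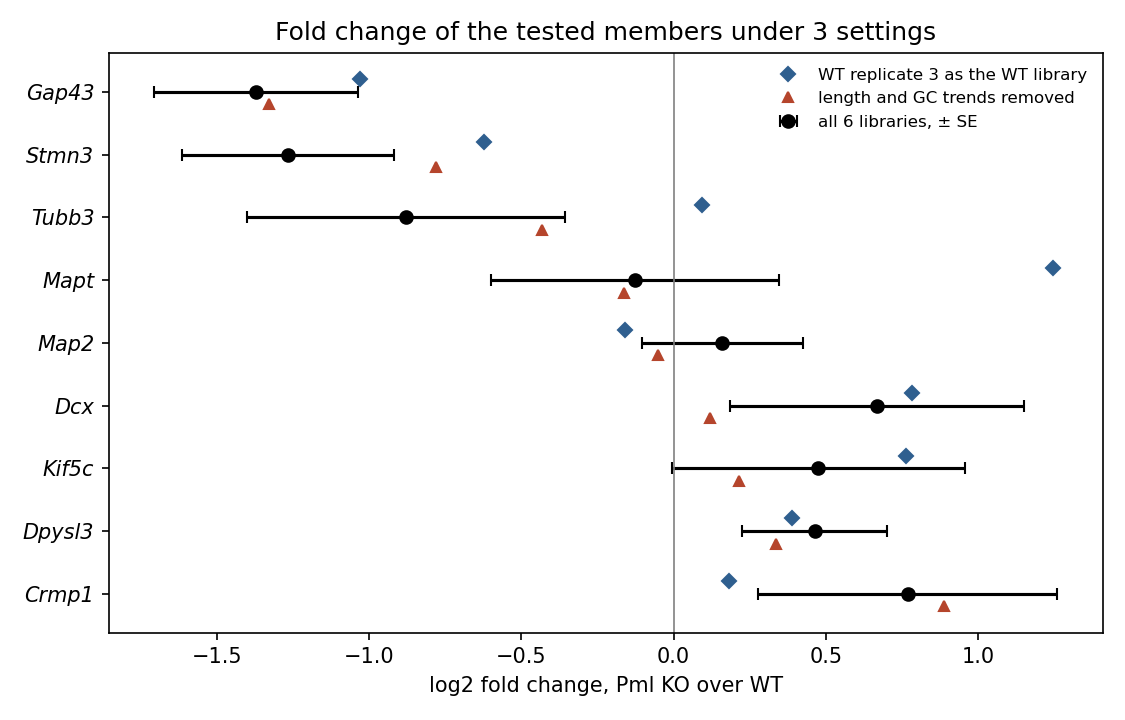
Log2 fold change, Pml knockout over WT, of the 9 tested members (Stmn2 was not tested). Black points with whiskers give the edgeR estimate ± SE from all 6 libraries, blue diamonds the estimate with WT replicate 3 as the only WT library, and red triangles the estimate after trends with length and GC content were taken out of each library; Gap43 and Stmn3 stay below 0 in all 3, while Tubb3, Mapt and Map2 change sign in at least 1.

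Transcript length varied widely among the members. The longest coding transcript was 1136 bases for Stmn3, 1420 for Gap43 and 1868 for Tubb3, the 3 tested members with the lowest fold changes. It was 3051 bases for Crmp1, 5253 for Mapt, 5479 for Dpysl3, 6258 for Map2, 6856 for Kif5c and 9074 for Dcx. A trend with length ran through all genes: the median log2 fold change was -0.29 in the shortest quintile of tested genes (70 to 1853 bases) and 0.25 in the longest quintile (5387 bases and above). Against WT replicate 3 alone the same medians were -0.09 and 0.13. GC content went with the fold change as well, with medians of 0.31 in the quintile of lowest GC and -0.41 in that of highest GC, and 0.01 and 0.03 against WT replicate 3 alone. Stmn3, Tubb3 and Crmp1, with 57.3%, 57.9% and 56.0% GC, belong to the quintile of highest GC, and Gap43, with 49.7%, to the middle one. Crmp1, with the highest fold change of the members, goes against that trend. After these trends were removed from each library, Gap43 had a log2 fold change of -1.33 (edgeR adjusted p 0.219). Stmn3 had -0.78 (adjusted p 0.289) and Tubb3 -0.43 (adjusted p 0.695). Dcx had 0.12 and Kif5c 0.22, while Crmp1 had 0.89. The part that RNA quality has in the trend was not tested.

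**Figure D3:**
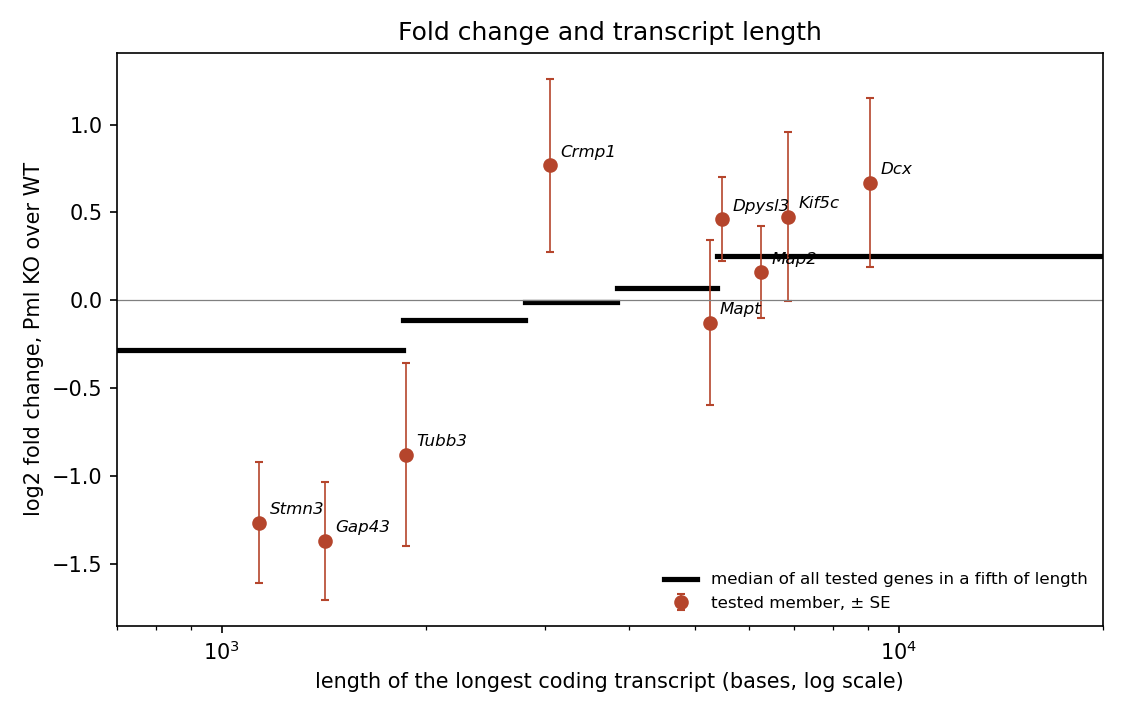
Log2 fold change, Pml knockout over WT, of the tested members (red, ± SE) against the length of the longest coding transcript in bases, on a log axis. Black bars give the median of all tested genes in each quintile of length (outer quintiles run past the axis); Gap43, Stmn3 and Tubb3 are the shortest tested members and lie below the bar of their quintile.

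The tubulin genes themselves lay mostly below 0. Of 11 tested tubulins other than Tubb3, 10 had a log2 fold change below 0 (median -0.76). By edgeR's quasi-likelihood test 0 passed, and 4 had an unadjusted p under 0.05, all lower, beside 9.19% of all genes on that side. DESeq2 called 3 of the 11 lower, beside 1.97% of all genes. Tubb4b, a beta tubulin of many tissues, had 176, 76.0 and 131 CPM in the knockout libraries, against 285, 377 and 281 CPM in WT, with a log2 fold change of -1.30 (SE 0.332, edgeR adjusted p 0.208) and a DESeq2 adjusted p of 0.0221. Tuba1c, an alpha tubulin, had 56.9, 31.7 and 48.2 CPM in knockout, against 112, 177 and 72.4 CPM in WT (log2 fold change -1.39, SE 0.370, DESeq2 adjusted p 0.0320). Tubg1, the gamma tubulin that nucleates microtubules at centrosomes, had 44.7, 34.5 and 40.4 CPM in knockout, against 89.3, 71.1 and 67.0 CPM in WT (log2 fold change -0.93, SE 0.266, DESeq2 adjusted p 0.0414). In all 3 of these genes, and in Tubb5, the groups did not overlap, beside 11.3% of all tested genes on the lower side. With library totals in place of scaling factors, which move the median of all genes by 0.44, 6 of 11 tubulins lay below 0 and the list median was -0.29, which is -0.72 relative to all genes. Against WT replicate 3 alone 8 of 11 lay below 0 (median -0.54). The longest coding transcripts of these 11 genes are short, 1598 to 2840 bases. With length and GC trends removed, 8 of 11 lay below 0 (median -0.55, which is -0.49 relative to all genes). Tubulin paralogs share much of their coding sequence, and no label says how reads that match several copies were counted.

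**Figure D4:**
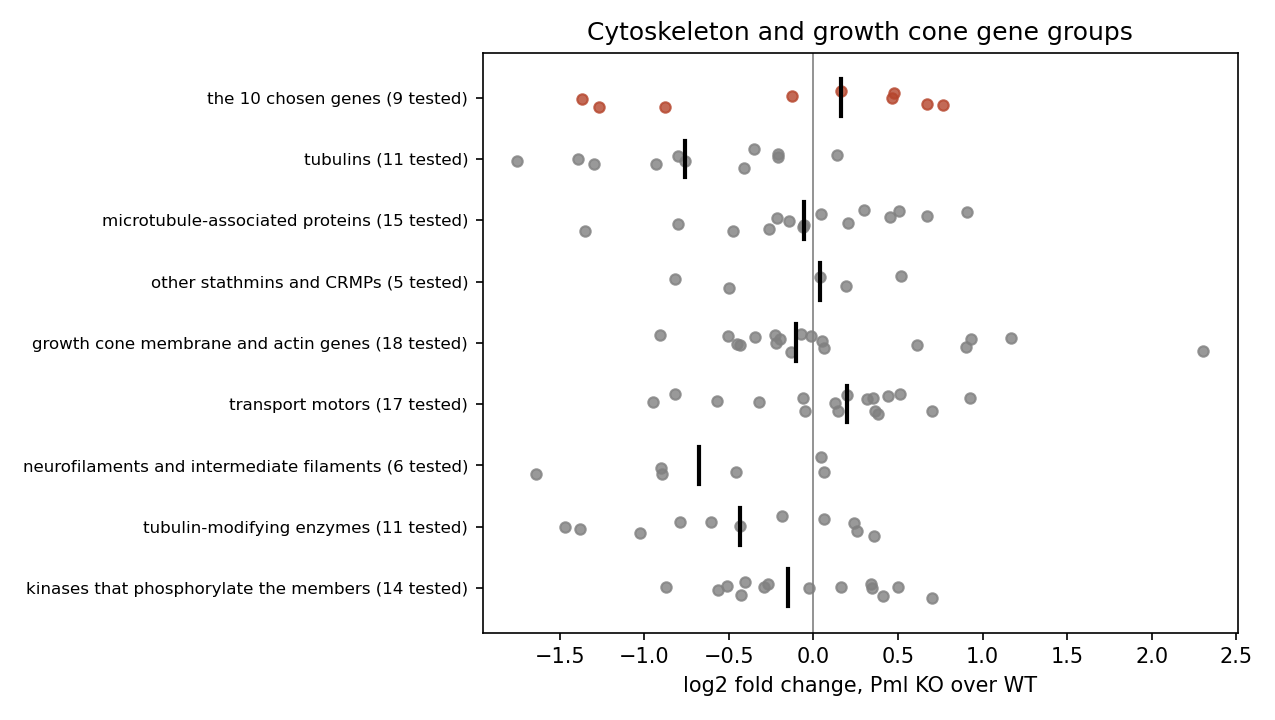
Log2 fold change, Pml knockout over WT, of each tested gene in the 10 chosen genes (red) and in 8 lists of related genes (grey), with a black bar at the median. Tubulins have a median of -0.76 with 10 of 11 below 0, and transport motors a median of 0.20 with 11 of 17 above 0.

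Of 5 other stathmins and CRMPs tested, 3 lay above 0 and 2 below (median 0.04), and 0 passed by edgeR or DESeq2. Stmn1, the ubiquitous stathmin of dividing cells, had 164, 111 and 108 CPM in the knockout libraries, against 202, 301 and 176 CPM in WT (log2 fold change -0.82, SE 0.300, edgeR adjusted p 0.245). Dpysl2, which encodes CRMP2, had 183, 273 and 232 CPM in knockout, against 171, 152 and 157 CPM in WT (log2 fold change 0.52, SE 0.253, adjusted p 0.344). For both, the groups did not overlap, beside 11.3% of all tested genes on the lower side and 12.3% on the higher. The other members of the list overlapped between genotypes: Stmn4 had a log2 fold change of 0.19 (SE 0.670), Dpysl4 0.04 (SE 0.418) and Dpysl5 -0.50 (SE 0.464). Their signs are uncertain at these SEs, so the list does not settle whether the stathmins or the CRMPs share 1 direction.

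Among 18 tested growth cone membrane and actin genes, 7 lay above 0 and 11 below (median -0.10), and 0 passed by edgeR. DESeq2 called 1 higher, beside 0.928% of all genes. This was Ncam1, the neural cell adhesion molecule, with 659, 844 and 576 CPM in knockout, against 395, 314 and 404 CPM in WT (log2 fold change 0.90, SE 0.273, edgeR adjusted p 0.220, DESeq2 adjusted p 0.0433). Marcks, a protein kinase C substrate at the plasma membrane, had 1514, 2113 and 1925 CPM in knockout, against 1017, 565 and 1322 CPM in WT (log2 fold change 0.93, SE 0.352). Dbnl, a drebrin-like actin-binding protein, had 37.6, 38.8 and 47.9 CPM in knockout, against 72.3, 99.9 and 62.2 CPM in WT (log2 fold change -0.91, SE 0.284). Pfn1, the actin-binding protein profilin, had 5.27, 22.9 and 27.0 CPM in knockout, against 3.87, 0 and 5.67 CPM in WT (log2 fold change 2.31, SE 0.766, edgeR adjusted p 0.238), and the level in WT replicate 3 lay above that in knockout replicate 1. Pfn1 rested on few reads, with 35, 139 and 181 in knockout, against 13, 0 and 25 in WT. Its count of 0 in WT replicate 2 allows up to 2.40 CPM. With library totals 15 of the 18 genes lay above 0, and the list median was -0.05 relative to all genes.

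Of 15 tested microtubule-associated genes, 7 lay above 0 and 8 below (median -0.06). Dclk1, a doublecortin-like kinase of radial glia and neurons, had 342, 413 and 392 CPM in knockout, against 204, 200 and 314 CPM in WT (log2 fold change 0.67, SE 0.275, edgeR adjusted p 0.278). Of 17 transport motor genes, 11 lay above 0 (median 0.20), and 10 with length and GC trends removed (median 0.02). Kif1b, a kinesin that carries mitochondria and synaptic vesicle precursors, had 450, 578 and 457 CPM in knockout, against 266, 303 and 343 CPM in WT (log2 fold change 0.70, SE 0.257, adjusted p 0.245). Ndel1, a partner of dynein in nuclear movement, had 27.8, 38.6 and 33.4 CPM in knockout, against 23.5, 12 and 16.1 CPM in WT (log2 fold change 0.92, SE 0.337, adjusted p 0.242). Of 11 tubulin-modifying enzymes, 7 lay below 0 (median -0.44). Of 14 kinases that act on these proteins, among them the Gsk3, Cdk5 and Mark families, 8 lay below 0 (median -0.15), and of 6 intermediate filament genes, 4 (median -0.68). In each of these 5 lists 0 genes passed by edgeR or DESeq2. With library totals the medians of the tubulin-modifying and kinase lists turned positive (0.03 and 0.35), as did that of the microtubule-associated list (0.45). Relative to all genes they were -0.40, -0.08 and 0.02. Against WT replicate 3 alone the medians of the microtubule-associated, kinase, intermediate filament and growth cone lists were 0.32, 0.14, 0.02 and 0.15. Relative to all genes these medians were 0.29, 0.11, -0.01 and 0.11. The median of the other stathmins and CRMPs was -0.02, which is -0.05 relative to all genes.

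Other neuronal markers did not give a common direction. Of 16 tested neuron markers 8 lay above 0 and 8 below (median -0.13), with 0 passing by edgeR or DESeq2. At an edgeR unadjusted p under 0.05 there were 4, all higher (Celf4, Scn3a, Elavl3 and Nsg2), beside 6.70% of all genes. Groups did not overlap for 3 on the higher side and 1 on the lower, beside 12.3% and 11.3% of all tested genes. Elavl3, an RNA-binding protein of young neurons, had 40.2, 75.5 and 50.6 CPM in knockout, against 33.0, 15.99 and 37.5 CPM in WT (log2 fold change 0.91, SE 0.375, edgeR adjusted p 0.284). Rbfox3, the mature neuron marker NeuN, had 5.87, 3.96 and 3.43 CPM in knockout, against 1.49, 12.8 and 7.72 CPM in WT (log2 fold change -0.64, SE 0.684, edgeR adjusted p 0.661). Snap25, a synaptic protein, had too few reads to be tested, with 3, 13 and 11 in knockout, against 5, 0 and 1 in WT. The summed level of the list was 465 to 642 CPM in knockout and 399 to 595 CPM in WT. Neurod6 and Tbr1, markers of cortical projection neurons, had at most 2 reads in any library, and Eomes, of intermediate progenitors, at most 4. In bulk samples, fewer neurons among the progenitors and less of a transcript in each cell cannot be told apart.

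The stem cell list as a whole was plentiful in every library, but Msi1 had at most 5 reads in any. Of its 11 tested genes 7 lay above 0 and 4 below (median 0.05), with 0 passing by edgeR or DESeq2. Groups did not overlap for 3, all higher, beside 12.3% of all tested genes on that side. At an edgeR unadjusted p under 0.05 there were 2, Nr2e1 and Fabp7, both higher, beside 6.70% of all genes. Sox2 had 731, 751 and 578 CPM in knockout, against 842, 1070 and 504 CPM in WT. Of the summed marker lists, the stem cell list stood at 7621 to 9253 CPM in knockout and 6226 to 8593 CPM in WT. The list of proneural and intermediate progenitor genes stood at 1615 to 2094 CPM in knockout and 1133 to 1603 CPM in WT. In that sum Sox4 alone had 1176, 894 and 819 CPM in knockout, against 636, 426 and 630 CPM in WT. Sox11 had 4613, 3338 and 3929 reads in knockout, against 1189, 634 and 3439 reads in WT. Only 6 of its 14 genes had enough reads to be tested, with 0 passing by edgeR or DESeq2, and Neurog2 had at most 7 reads. The astrocyte list stood at 1454 to 1904 CPM in knockout and at 1477, 3000 and 806 CPM in WT replicates 1, 2 and 3. The oligodendrocyte precursor list stood at 1705 to 2270 CPM in knockout and 1447 to 2095 CPM in WT. Microglial genes summed to 0 to 2.11 CPM in knockout and to 3.27, 33.6 and 1.59 CPM in WT replicates 1 to 3. Endothelial and mural genes summed to at most 4.81 CPM in knockout and 11.6 CPM in WT, meningeal fibroblast genes to at most 17.0 CPM in knockout and 24.1 CPM in WT, and erythroid genes to at most 0.451 CPM in knockout and 0.595 CPM in WT. Of 27 tested liver-type genes 26 lay below 0, with 0 passing by edgeR and 19 called lower by DESeq2, beside 1.97% of all genes. Gap43, Stmn3, Tubb3 and Mapt were highest in WT replicate 2, where the liver-type, astrocyte and microglial sums were highest too. Their part in the result was not tested.

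The genes whose pattern over the 6 libraries was most like the mean standardized profile of the 9 tested members were Tox, Dclk2, Zeb2, N4bp2l1 and Dhrs1. Their Pearson correlations with that profile were 0.992, 0.975, 0.965, 0.965 and 0.963, over 6 libraries and as a description only. The members do not share 1 pattern, so this mean cancels opposite ones: over the same 6 libraries Gap43 correlated with Dpysl3 at -0.912 and with Crmp1 at -0.856, and Tubb3 with Map2 at -0.83. The profile was highest in knockout replicate 2 (0.35) and lowest in WT replicate 3 (-0.22). Tox, for instance, had 16.7, 46.2 and 19.2 CPM in knockout, against 17.6, 26.4 and 14.1 CPM in WT.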

How the data were processed

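Total RNA of 3 Pml knockout and 3 WT neurosphere samples was made into 3′ tag libraries (QuantSeq forward kit) from RNA with an integrity number above 7, per the labels' protocols. Deposited values are whole read counts by gene symbol, and the submitters' processing notes name FastQC, HISAT2, HTSeq, edgeR and mm10, with no version. No source states the annotation or strand setting. Per the file headers the table also holds the authors' log2 fold changes and p-values, used only where named as theirs; 6 columns of normalized values were not used. Reads at the 3′ end do not scale with transcript length, and levels are not compared between genes.

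The counts went into edgeR 4.0.16 under R 4.3.3, with its default filter (minimum count 10, minimum total 15), trimmed mean of M values factors and a robust quasi-likelihood F test of knockout against WT with no covariate. P-values were adjusted over all 11317 tested genes with a threshold of 0.05. SE is the size of the log2 fold change over the square root of F. CPM are scaled with the library factors. Alternatives used limma 3.58.1 and DESeq2 1.42.0. The fit was tested on simulated data. Members, related gene lists and marker lists were chosen with earlier results of these data known. Named were all members, up to 4 genes per list with the smallest p (those printed, plus some markers named for their role, chosen after their values were seen), and the 5 genes most like the members in pattern. Gene models are from GENCODE M21 (GRCm38, the assembly of mm10); 96.5% of tested genes had a length. The floor for a count of 0 is 3 reads and covers counting error only.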

Additional observations from a re-analysis of the deposited data

How the results depend on the processing

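Over 22 alternatives, of which the removal of length and GC trends was added after seeing the data, Gap43 stayed between -1.60 and -0.87 and Stmn3 between -1.50 and -0.62 on the log2 scale. Each passed under the same 4: DESeq2, voom with quality weights, the edgeR exact test and without WT replicate 3. Under these 4 the number of members passing was 2, both lower, and it was 0 under the other 18. Gap43's adjusted p ran from 0.00999 to 0.714 over all alternatives and Stmn3's from 0.0166 to 0.714.

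The number of all genes passing, 1 with the main settings, was 328 by DESeq2, 1242 by voom with quality weights, 359 by edgeR's exact test, 3 when the count filter was dropped and 142 without WT replicates 1 and 2. It was 0 with RLE factors, with library totals, at a minimum of 5 CPM, by voom, at an adjusted p under 0.01 and without the Rn45s row. With single libraries left out it ran from 0 to 1526, the highest without WT replicate 3, and the members passing from 0 to 2. With the replicate number as a block 2 genes and 0 members passed, but same-numbered libraries share only a number (correlations of their deviations -0.0025, 0.067 and 0.188). Median log2 fold change of the members was 0.56 with library totals, where the median of all genes also shifted by 0.44; it was between 0.10 and 0.39 with single libraries left out and -0.05 with length and GC trends removed.

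Mapt, -0.13 with the main settings, turned to 0.48 with library totals, 0.18 by voom, 0.17 with quality weights, 0.048 with the replicate block, 0.08 without knockout replicate 1, 0.55 without WT replicate 2 and 1.25 without WT replicates 1 and 2. With single libraries left out it ran from -0.51 to 0.55. Without WT replicates 1 and 2 together, Tubb3 turned to 0.094 and Map2 to -0.16, and Map2 was -0.050 with length and GC trends removed. The cause was not tested. Dcx, Dpysl3, Crmp1 and Kif5c kept their sign and did not pass under any alternative. The threshold of 0.01 and the non-robust fit left every member's log2 fold change as with the main settings, so they could not turn a sign. Low reads limit Tubb3, Dcx, Kif5c and Stmn2.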
